A study of Mus musculus with 2 samples.

Results

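The transcripts described here are those of the 10 genes of the core circadian clock loop, measured in the pancreas of adult mice whose mothers ate either a control diet or a methionine-deficient diet. The genes are Arntl (also called Bmal1), Clock, Per1, Per2, Per3, Cry1, Cry2, Nr1d1, Nr1d2 and Rora. They were chosen by name, with earlier results of these data known. Every probe set that the platform annotation assigns to any of these genes was taken, 30 of 45101 in all, none of them shared with another gene. The study measured 2 pools of pancreatic RNA, each on 1 Affymetrix expression array. The control pool came from male C57BL/6J offspring, an inbred laboratory strain, of dams kept on control diet in pregnancy, and the methionine-deficient pool from male offspring of dams whose pregnancy diet lacked sufficient methionine. Methionine is an essential amino acid that supplies methyl groups. Both groups were weaned at 3 weeks, ate control diet from then on and were 10 weeks old, so the diet of the offspring themselves did not differ. How many mice made up each pool, and the hour at which the tissue was taken, were not given in the sources used here.

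This clock is a feedback loop of transcription that runs in nearly all cells, the acinar and islet cells of the pancreas included. The proteins of Arntl and Clock pair and activate genes through E-box sequences. Among the activated genes are the Per and Cry genes, whose proteins return to the nucleus and block that pair, and Nr1d1 and Nr1d2, which encode the REV-ERB receptors. In a second loop the REV-ERB receptors repress Arntl and the RORA receptor activates it through a shared response element. Because of this wiring, transcripts of the Per and Nr1d genes peak at another time of day than those of Arntl.

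Pairs of intensities are given with the control pool first and the methionine-deficient pool second. With 1 pool on 1 array in each group, no test of the diet could be made, and all values are single values without a p-value. A difference is given as log2(intensity + 1) of the methionine-deficient pool minus that of the control pool. Its error is the probe-set spread, a robust SD for the difference of 1 probe set, estimated from probe sets of the same gene at a similar level, which covers probe noise within these arrays and neither mice nor arrays. From the dimmest to the brightest of 5 level bins past the filter it was 0.77, 0.60, 0.46, 0.31 and 0.18, and below the filter it was 1.86. The level filter was the median over all probe sets except array controls, an intensity of 150, and it was applied to the mean log2 level of both pools. It kept 22 of the 30 member probe sets and at least 1 for each of the 10 genes, while 8 lay below it.

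Sequences around the start sites are shown first, with matches to motifs of the kind through which the loop can act on its genes. Promoter windows from RefSeq (build GRCm38.p6, 250 bases before to 50 after a start site) were matched by symbol for 9 genes, in 13 windows, with Per2 not among them. Motifs were searched on both strands, and the capitals mark the matches, which are a description of the letters and not of binding. The stretches are printed 5′ to 3′ on the strand of the gene.

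Per1 E-box, chr11:69098763-69098808, plus strand, CACGTG beginning 166 bases before the start: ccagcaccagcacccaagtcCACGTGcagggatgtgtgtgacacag

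Per1 D-box, chr11:69098905-69098948, plus strand, TTATGCAA beginning 24 bases before the start: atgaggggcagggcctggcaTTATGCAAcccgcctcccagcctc

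Per3 D-boxes, chr4:151044796-151044890, minus strand, TTATGTAA beginning 205 and 158 bases before the start: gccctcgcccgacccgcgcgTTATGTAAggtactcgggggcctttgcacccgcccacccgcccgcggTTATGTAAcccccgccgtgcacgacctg

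Cry1 non-canonical and canonical E-box, chr10:85185089-85185153, minus strand, beginning 79 and 60 bases before the start: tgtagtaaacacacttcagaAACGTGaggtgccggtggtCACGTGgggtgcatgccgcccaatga

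Nr1d1 non-canonical E-box, chr11:98775380-98775425, minus strand, beginning 28 bases before the start: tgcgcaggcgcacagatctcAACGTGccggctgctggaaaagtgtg

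Arntl ROR response element, chr7:113207528-113207556, plus strand, beginning 26 bases after the start: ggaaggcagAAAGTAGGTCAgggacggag

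The canonical E-box, CACGTG, is the binding sequence of the Arntl and Clock pair. It was in 1 of the windows of Per1 and in that of Cry1, 2 of the 13 member windows. Of all 32851 promoter windows 7.15% hold it. The non-canonical E-box, CACGTT or its complement AACGTG, was in the windows of Cry1, Cry2 and Nr1d1, 3 of the 13, against 4.68% of all windows. The D-box, searched as TTATGTAA, TTATGCAA and TTACGTAA, is read by the clock output factors of the Dbp family. It was in 1 of the windows of Per1 and in that of Per3, 2 of the 13 member windows, against 1.78% of all. The ROR response element, through which the second loop acts, was in 1 of the windows of Arntl, against 0.384% of all. The cAMP response element TGACGTCA was in none of the 13 member windows, and 1.79% of all windows hold it. No motif of this search was in the windows of Clock, Rora or Nr1d2, which says only that these letters are not in those windows.

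Of the 10 clock genes, read through the brightest probe set past the filter, 7 had a higher level in the methionine-deficient pool and 3 a lower one. By this reading the 3 Per genes had the largest positive differences, Per2 at 0.84, Per3 at 0.50 and Per1 at 0.47, while Arntl, at 0.03, and Rora, at -0.07, were close to equal and Cry1 had the lowest value, -0.38. The order depends on which probe sets are read. With the mean over the probe sets of a gene past the filter, Nr1d2 was the highest at 0.88, ahead of Per2 at 0.62, and Arntl was at -0.38, as low as Cry1. The median of the 10 genes was 0.18. Over all 11848 genes past the filter the median was 0.00 and 50.0% were higher. At 1.5-fold or more the background was 10.4% of genes higher and 9.00% lower, and among the 10 clock genes 1 was higher by that much, Per2, which passed the filter only through its level in the methionine-deficient pool, and none was lower. The count at this size is therefore near the background, and the description rests on small differences. Scaling both arrays to the poly-A spike-in controls, bacterial RNAs that can be added before labelling, lowers every difference by 0.18, which gives 5 clock genes higher and 5 lower with 31.0% of all genes higher. The median of the 10 genes is then 0.00 and that of all genes -0.18, so their distance is the same. Since pools of whole pancreas were measured, fewer cells of a type and less RNA per cell cannot be told apart.

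**Figure D1:**
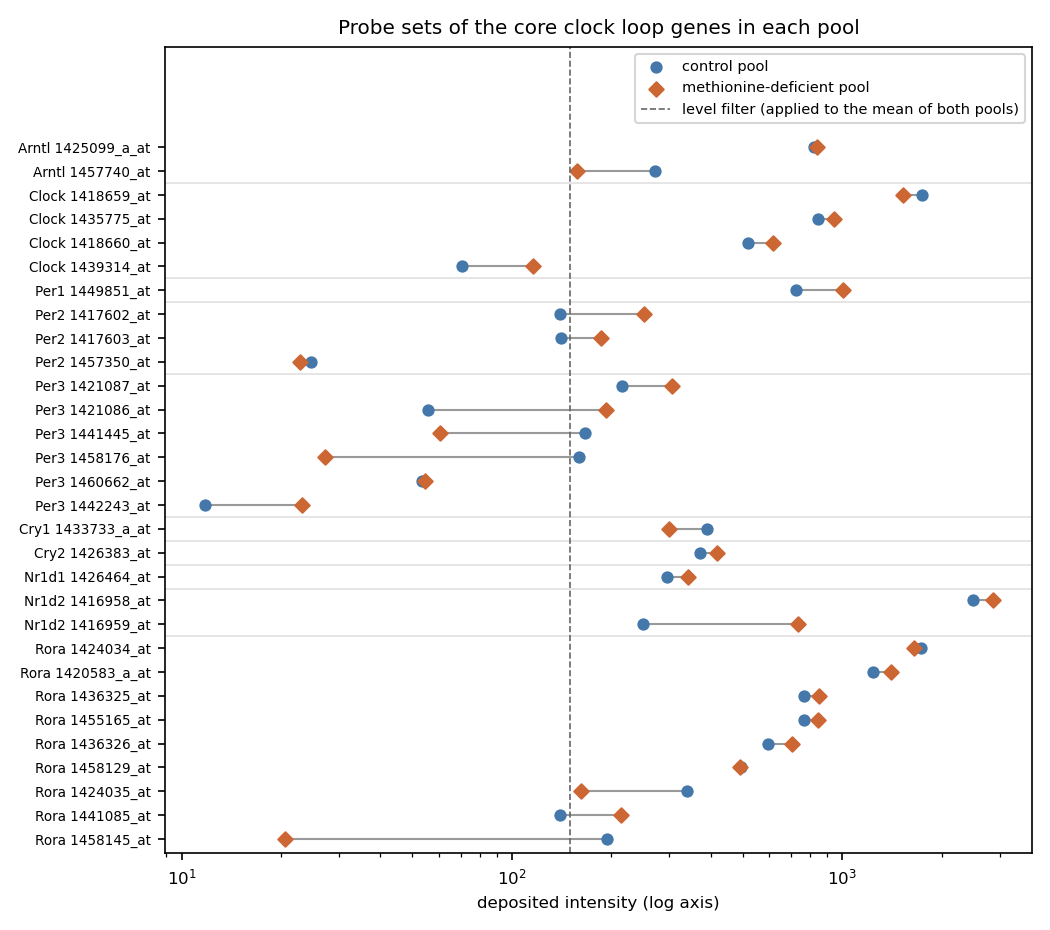
Deposited intensity (log axis) of each of the 30 probe sets of the 10 clock genes, with the control pool as circles and the methionine-deficient pool as diamonds, 1 array each, and genes ordered by role. The dashed line is the level filter at an intensity of 150; the widest gaps belong to probe sets of Per3, Rora and Nr1d2, and most of the pairs right of an intensity of 500 lie close together.

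Among the activators, the level of Arntl, the partner without which the loop does not run, was nearly the same in both pools in its brighter probe set. Probe set 1425099_a_at had intensities of 823 and 839, so the log2 difference was 0.03, beside a spread of 0.31. The dimmer probe set 1457740_at had 272 and 158, a difference of -0.78 with a spread of 0.77. The 2 probe sets thus lay 0.81 apart, about as much as the combined spread of 0.83, and only the dimmer one placed Arntl lower. With the median of each array subtracted, the brighter one also turned below 0, at -0.03, and it was at -0.16 after scaling to the poly-A controls.

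Clock, which encodes the partner of Arntl, had 4 probe sets, which did not share a direction. The brightest, 1418659_at, had intensities of 1745 and 1530, a difference of -0.19 beside a spread of 0.18. Probe sets 1435775_at, with 847 and 945, and 1418660_at, with 519 and 616, gave 0.16 and 0.25 with spreads of 0.31 and 0.46. The remaining probe set, 1439314_at, lay below the filter at 70.7 and 116. The 3 past the filter spanned 0.44, less than the combined spread of 0.50 of the outermost ones, so no direction can be read for Clock.

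Per1, a repressor that also responds rapidly to glucocorticoid and to cAMP, was read by 1 probe set, 1449851_at. Its intensity was 726 in controls and 1007 after maternal methionine deficiency. The difference of 0.47 is 1.39-fold and exceeds the probe-set spread of 0.31. It was 0.29 after scaling to the poly-A controls, just under that spread.

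Per2, a repressor needed for a stable rhythm in mice, had 2 probe sets that passed the filter, both pointing up. In the control pool each was below the filter intensity of 150, and it passed through its higher level in the methionine-deficient pool, so a positive difference goes with their being kept. Probe set 1417602_at had intensities of 140 and 252, a 1.80-fold difference of 0.84 on the log2 scale. Probe set 1417603_at had 141 and 186, a difference of 0.40. Both lie in the dimmest bin, where the spread is 0.77, so only the former exceeds it, and by little, and at 0.66 after scaling to the poly-A controls it does not. A further probe set, 1457350_at, read 24.7 and 22.8, far below the filter.

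Per3 had 6 probe sets, and 5 of them lay below the filter. The one past it, 1421087_at, had intensities of 215 and 305, a 1.42-fold difference of 0.50, within its spread of 0.60. Below the filter, 1421086_at had 55.6 and 193, a difference of 1.78. Others pointed down, as 1441445_at had 167 and 60.7, a difference of -1.44, and 1458176_at had 160 and 27.1, a difference of -2.52. The remaining ones, 1460662_at at 53.5 and 54.7 and 1442243_at at 11.8 and 23.1, gave 0.03 and 0.92. All but 1 of the 5 dim values lay within their spread of 1.86, and the exception, -2.52, was the lowest.

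The cryptochromes, which bind the Per proteins and carry most of the repression, went separate ways by amounts within their spread. Cry1 had intensities of 390 and 300 in its single probe set 1433733_a_at, a difference of -0.38 with a spread of 0.60. Cry2 had 371 and 418 in probe set 1426383_at, a difference of 0.17 with a spread of 0.46. Cry2 turned to -0.01 after scaling to the poly-A controls, while Cry1 was lower under each scaling tried.

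Of the REV-ERB receptors, Nr1d2 was higher in both of its probe sets but by very different amounts. The brighter, 1416958_at, had intensities of 2493 and 2854, a difference of 0.19 beside a spread of 0.18. The dimmer, 1416959_at, had 249 and 737, a 2.95-fold difference of 1.56 on the log2 scale with a spread of 0.46. This was the largest difference of the 22 probe sets past the filter. The 2 values lay 1.37 apart, against a combined spread of 0.50, although the annotation assigns both probe sets to the same RefSeq mRNA. The size of the difference in Nr1d2 is therefore not settled by these arrays, and after scaling to the poly-A controls the brighter probe set gave 0.01. Nr1d1, the better known of the receptors, had 295 and 342 in probe set 1426464_at, a difference of 0.21 within its spread of 0.60.

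Rora, the activator of the second loop, was the most widely read gene, with 8 probe sets past the filter and 1 below. Its brightest, 1424034_at, had intensities of 1733 and 1652, a difference of -0.07 with a spread of 0.18. Probe set 1420583_a_at had 1240 and 1406, a difference of 0.18. Probe sets 1436325_at, 1455165_at, 1436326_at and 1458129_at had differences of 0.15, 0.14, 0.24 and 0.00. These 6 brighter probe sets all lay within their own spread. The 2 dimmer ones past the filter pointed opposite ways, 1424035_at with 340 and 162, a difference of -1.07 (spread 0.60), and 1441085_at with 140 and 214, a difference of 0.61 (spread 0.77), which likewise passed the filter only through the methionine-deficient pool. Below the filter, 1458145_at had intensities of 194 and 20.6, a difference of -3.18 that was the farthest from 0 of all 30. The median over the 8 probe sets was 0.14, against -0.07 in the brightest alone.

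**Figure D2:**
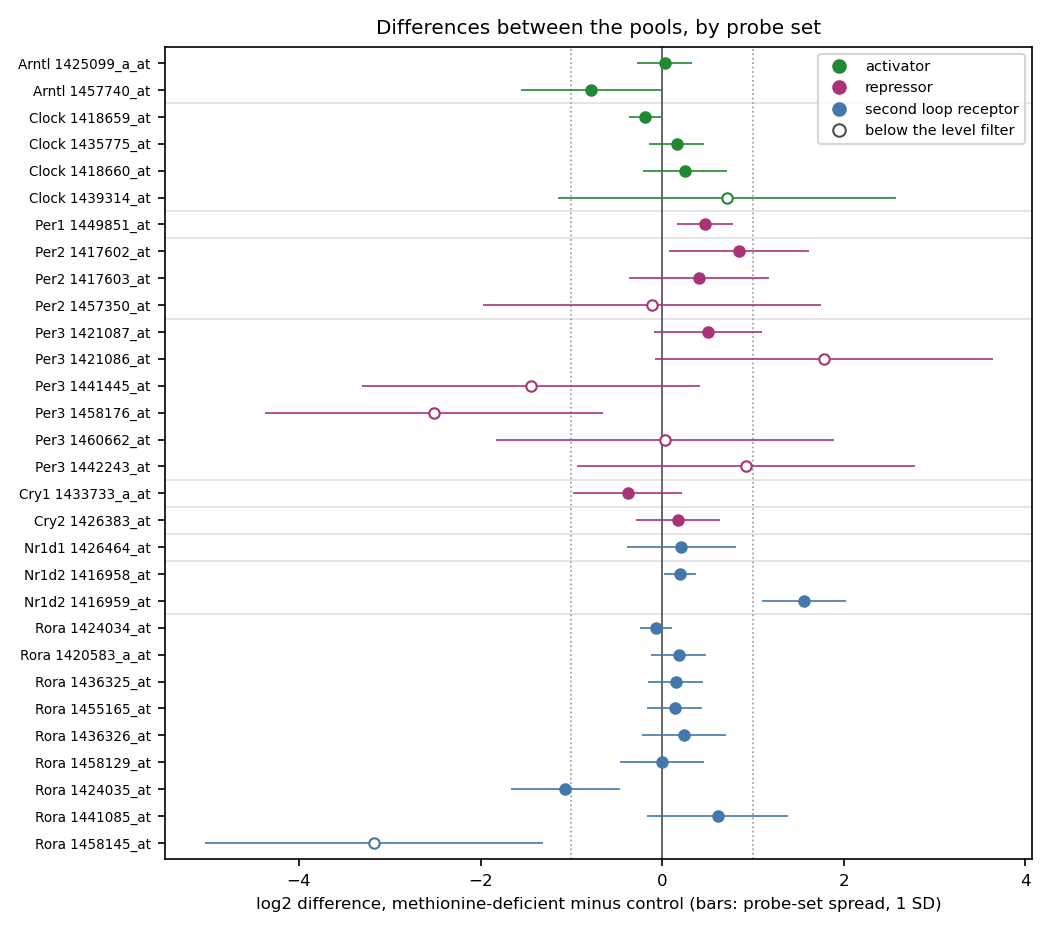
Log2 difference (methionine-deficient minus control) of each of the 30 probe sets, with bars of 1 SD of probe-set spread at that level, green for activators, purple for repressors and blue for second loop receptors. Open circles lie below the level filter and dotted lines mark 2-fold; past the filter only Nr1d2 1416959_at at 1.56 and Rora 1424035_at at -1.07 lie beyond them.

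Counted over probe sets, 16 of the 22 past the filter were higher in the methionine-deficient pool, against 50.8% of all 22519 probe sets past it. Probe sets of 1 gene share their target, so these are not 22 separate observations, and Rora alone gives 8 of them. Among the higher ones, Per2 1417602_at and 1417603_at and Rora 1441085_at passed the filter only through the methionine-deficient pool. For these a positive difference goes with their being kept, so the count of 16 is not read as a result about the clock genes. At least 2-fold apart were 2 of the 22, and 7.92% of all probe sets past the filter were. In the level bin of the Rora probe set 11.6% of all probe sets were at least 2-fold apart, and in that of the Nr1d2 probe set 4.62% were. Below the filter 4 of the 8 member probe sets were at least 2-fold apart, against 56.2% of all probe sets there. A difference of 2-fold or more is therefore common among dim probe sets, but that share does not cover larger sizes. Per3 1458176_at, at -2.52, exceeded its spread of 1.86 and lay inside the band that holds most probe sets of similar level. Rora 1458145_at, at -3.18, exceeded the same spread and lay below the lower limit of that band, -2.93. The shares of the members at least 2-fold apart are thus near the background in both ranges.

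Among the 5 clock genes with 2 or more probe sets past the filter, all probe sets were higher in Per2 and Nr1d2, and in 20.0% of all 4819 such genes. Nothing is read from this for Per2, whose probe sets were below the filter level in the control pool and whose dimmest probe set, left out by the filter, was at -0.11. The probe sets of Nr1d2 and Rora spanned at least 1 on the log2 scale, as did those of 22.6% of all such genes, a share that also depends on how many probe sets a gene has. A further split, chosen after the values were seen, was by the transcript that the annotation gives for a probe set. The 6 member probe sets annotated to a RefSeq mRNA, of Per3, Nr1d2 and Rora, were all higher without scaling, 4 of them past the filter. Of all probe sets past the filter with such an annotation, 48.3% were higher. The 6 come from only 3 genes, and 2 of them did not keep that direction, Per3 1460662_at, which was below 0 with median, quantile and poly-A scaling, and Rora 1420583_a_at, which was at 0.00 with poly-A scaling. The split therefore supports nothing about the clock genes. The other 24 member probe sets were higher in 14 cases and lower in 10, and the lower probe sets of Per3 and Rora noted above are among them.

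**Figure D3:**
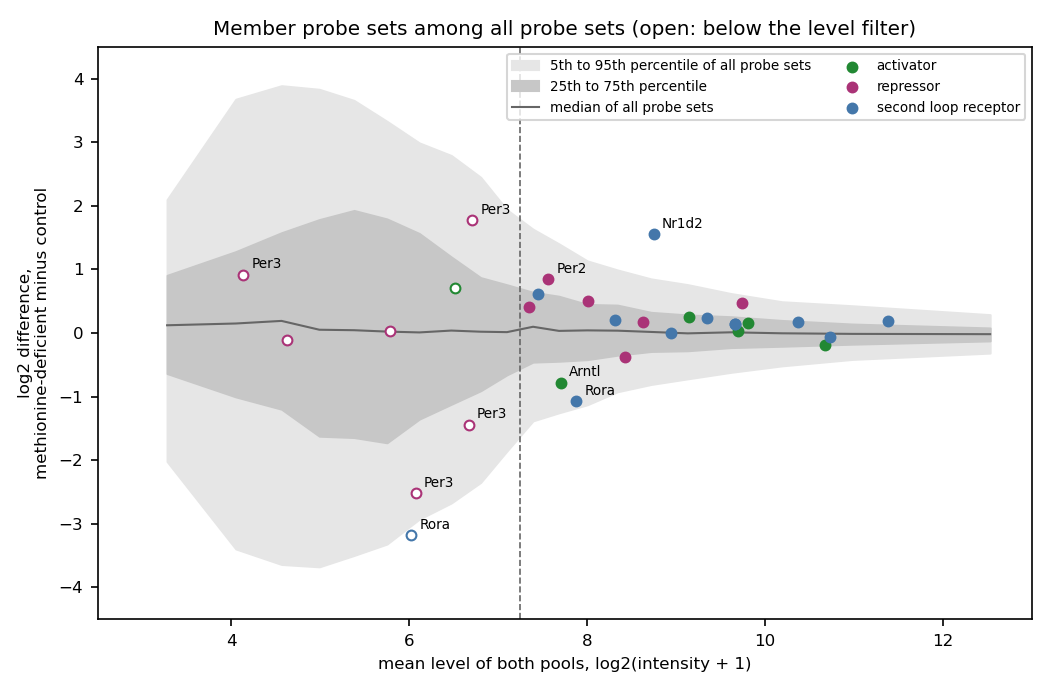
Log2 difference of the 30 member probe sets against their mean level in both pools, over bands that hold the central 50% and 90% of all probe sets in 20 level bins; open circles lie below the level filter (dashed line). Past the filter 1 of 22 member probe sets lies outside the 90% band of its bin, Nr1d2 1416959_at at 1.56, and below it 1 of 8, Rora 1458145_at at -3.18.

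Other genes of the clock were taken from lists that name 46 further genes, of which 40 were past the filter. The lists were chosen with earlier results of these data known, so their counts and medians are a description only. The median of the 40 genes was 0.03, with 23 of them higher and 17 lower. A difference of 1.5-fold or more was seen upward in 5 and downward in 4, beside the backgrounds of 10.4% and 9.00% above. Output factors and targets of the clock, 10 genes, were higher in 7 cases with a median of 0.41, 4 of them by at least 1.5-fold. Dbp, which binds the D-box, was the highest, with intensities of 545 and 2026 (log2 difference 1.89, spread 0.31). Hlf, of the same family, had 0.66 in its brightest probe set (spread 0.46), and its other probe set gave -0.08. Tef, the remaining member of that family, had 0.45 with its 3 probe sets all higher. Wee1, a kinase that restrains entry into mitosis and whose promoter the clock activates, had 710 and 1223, a difference of 0.78 (spread 0.31). Usp2, a ubiquitin protease, had 1270 and 2014, a difference of 0.66 (spread 0.18). Nfil3, the repressor that competes with Dbp for the D-box, was at -0.02, and the membrane protein gene Tspan4 was lower at -0.74 (spread 0.60).

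The enzymes and partners that act on clock proteins, 28 genes past the filter, were balanced, with 15 higher, 13 lower and a median of 0.01. Ciart, a repressor of the Arntl and Clock pair, was the only one at least 1.5-fold higher, with intensities of 218 and 472 (log2 difference 1.11, spread 0.60). Csnk1d, the casein kinase that marks Per proteins for degradation, had 3267 and 2024, a difference of -0.69 (spread 0.18). Its 5 probe sets were lower in 4 cases, while 1456727_a_at was higher at 0.44. Its close relative Csnk1e had 0.39 (spread 0.46). Kdm5a, a histone demethylase that binds the activator pair, had -0.71 (spread 0.31) with its 4 probe sets past the filter all lower. Timeless had -0.74 (spread 0.77). Of the relatives of the members, Arntl2 had 0.09 and Rorb -0.13, and Npas2, which can replace Clock, lay below the filter. Csnk2b, Ncor1 and Rack1 were not analysed here.

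**Figure D4:**
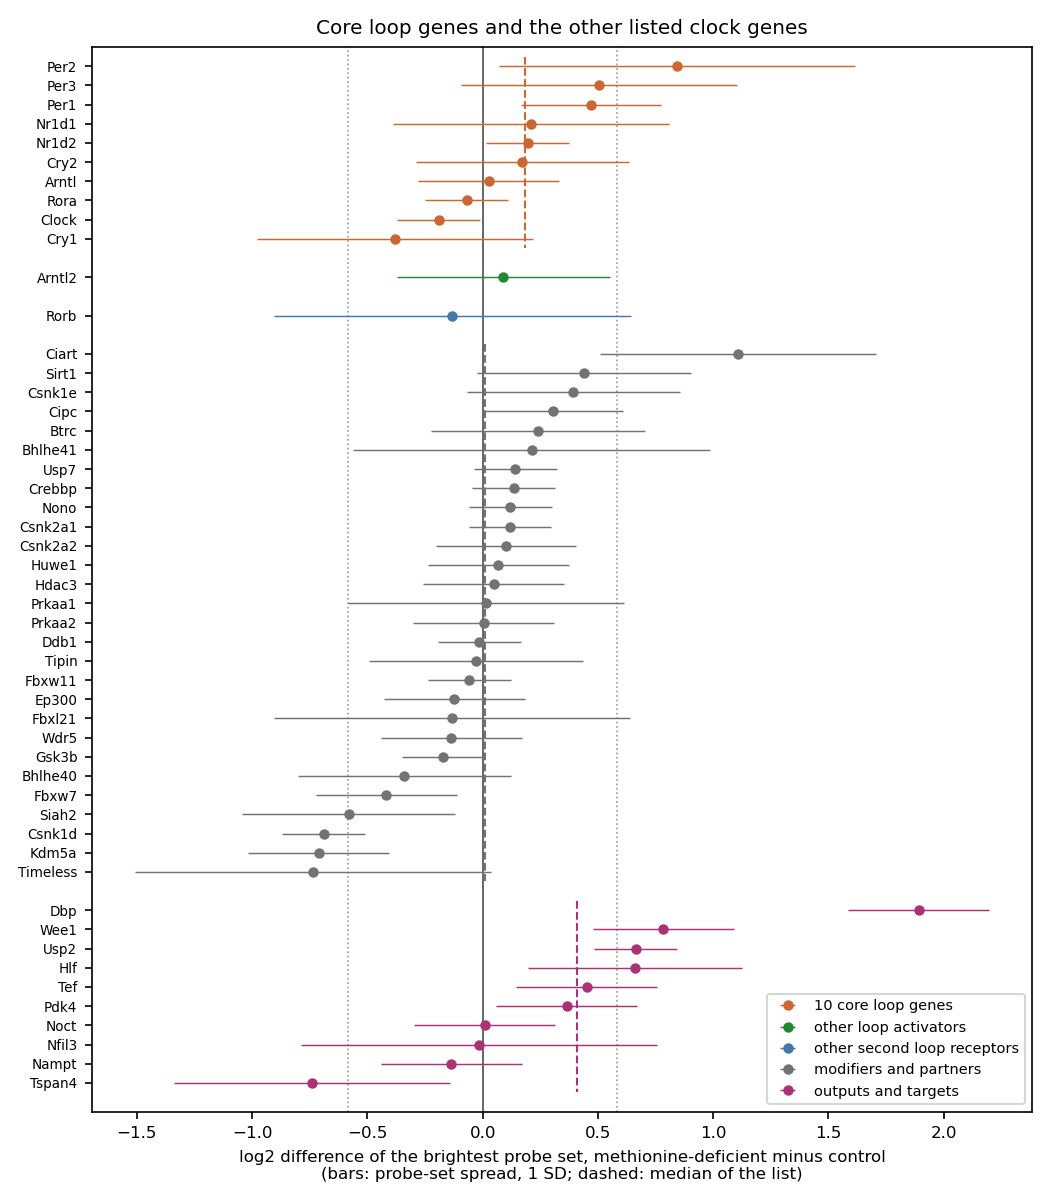
Log2 difference (methionine-deficient minus control) of the brightest probe set past the filter for the 10 core loop genes and the 40 other listed clock genes, with bars of 1 SD of probe-set spread, dashed medians of lists with several genes and dotted lines at 1.5-fold. The outputs Dbp (1.89), Wee1, Usp2 and Hlf and the repressors Ciart (1.11) and Per2 (0.84) lie right of the dotted line, and Csnk1d, Kdm5a, Timeless and Tspan4 lie left of it.

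The tissue label could be set against marker genes. The 7 acinar genes past the filter had intensities of at least 12350 in either pool and a median difference of -0.06, and the 7 islet genes had a median of 0.00. Of the B cell and plasma cell genes 6 of 7 were lower, with summed intensities of 13170 and 6691 and none at 0. In their brightest probe sets the 3 duct genes past the filter were all higher, summing to 1351 and 1766. The dimmest probe set of Sox9, below the filter, was at -3.75. Of the other duct genes, Cftr lay below the filter with probe sets at -1.46 and 2.09, and Spp1 was not analysed here. The 3 endothelial genes past the filter were also higher in their brightest probe sets, at 1135 and 1481, although another probe set of Cdh5 was at -0.50. The 3 adipocyte genes were lower by that reading, at 15357 and 12988, but most of the sum is Fabp4, whose next probe set 1451263_a_at had 3855 and 6807, a difference of 0.82 that turns the direction of the sum. Cidec, read by 1 probe set, was at -1.59 (spread 0.60), and Adipoq was at -0.20 (spread 0.18). Other lists were mixed. Of the 2 T cell genes past the filter 1 was higher and 1 lower, Cd4 at -1.73, with sums of 1078 and 1120. Cd4, at 381 and 114, passed the filter only through the control pool, so a negative difference goes with its being kept. Cd3e, Cd3d and Cd3g lay below the filter, and Trac was not analysed here. Of the myeloid genes 2 were higher, C1qa at 1.01, and 4 lower, with sums of 7664 and 8362. Of the fibroblast and stellate genes 3 were higher and 2 lower, Pdgfra at -1.08, with sums of 18457 and 17310. Among the higher ones Pdgfrb, at 142 and 221, passed the filter only through the methionine-deficient pool, so its positive difference goes with its being kept. Clock genes are expressed in all of these cells, and the part of cell makeup in the differences of the clock genes was not tested. Signal at the 3' end over that at the 5' end, which climbs as RNA degrades, was 1.46 and 1.76 for Actb and 0.973 and 1.11 for Gapdh, and its part in these differences was likewise not tested.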

How the data were processed

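Per the labels' protocols, total RNA was extracted with Trizol, pooled by group and turned into biotin-labelled cRNA with an Affymetrix 3' IVT kit. The authors deposited 1 linear intensity for each probe set. How these were computed was not given in the sources used here. Both arrays have a 2% trimmed mean of 500.003, so a difference in total signal is not visible. Intensities ran from 0.669 to 266191, and the number of arrays limits the precision.

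Probe sets were named through the platform annotation of 2016, with symbols updated by gene identifier. Values were taken as log2(intensity + 1) without further scaling, and no detection calls were used. A gene was read through its brightest probe set past the level filter (median of the 45037 probe sets that are not controls). All probe sets of the 10 members are given. Of the other clock lists, genes at least 1.5-fold apart were named, and Tef, Nfil3, Csnk1e, Arntl2, Rorb and Npas2 were added after their values were seen. The probe-set spread was estimated in 5 level bins from pairs of probe sets of 1 gene and tested on simulated data. The members and lists were chosen with earlier results of these data known. Alternatives were median, quantile, loess (span 0.3) and poly-A control scaling, a pseudocount of 16, other level filters, omitting probe sets able to bind several transcripts, the mean or median over probe sets, sizes of 1.5-fold and 3-fold, and leaving out each member. Python 3.11.15 with numpy 2.4.6, pandas 2.3.3 and statsmodels 0.14.6 was used.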

Additional observations from a re-analysis of the deposited data

Results flagged for a closer look

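The poly-A spike-in control probe sets, a signal outside the clock comparison, were higher in the methionine-deficient pool in 23 of 24 cases. Their median log2 difference was 0.18. This is close in size to the median of the 10 clock genes and to the differences of Cry2, Nr1d1 and the brighter Nr1d2 probe set, and several of these control probe sets read the same transcript.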

How the results depend on the processing

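The median log2 difference of the 10 clock genes, 0.18, lay between 0.13 and 0.19 under centring on array medians, loess or quantile scaling, without a level filter, with a pseudocount of 16, without probe sets that can bind several transcripts, and with the mean or median over probe sets, and between 0.17 and 0.19 with each gene left out. It was 0.0016 with poly-A control scaling. With the level filter at the 75th percentile it was 0.027, where 5 genes remained measured, Arntl, Clock, Per1, Nr1d2 and Rora, 3 of them higher, since fewer genes pass that filter. The 2 member probe sets at least 2-fold apart became 6 without a level filter and 0 with the filter at the 75th percentile, 5 at 1.5-fold and 0 at 3-fold, with 32.1%, 1.39%, 22.2% and 2.17% of all probe sets. Of 177 values of single probe sets under scaling, pseudocount and probe-set alternatives, 174 moved by less than the probe-set spread, and those of 7 probe sets changed sign, none over 0.18 in size. The mean over probe sets also changes the order of the genes, with Nr1d2 at 0.88 above Per2 at 0.62. Omitting the probe sets able to bind several transcripts removes Cry1 and reads Arntl at -0.78.
No paired analysis was possible because each group is 1 pool on 1 array. No detection calls were used, so detection of dim probe sets is not assured, and most values of Per3 are at levels where the spread is widest.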
